A study of Mus musculus with 4 samples.

Results

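Hemoglobin and erythroid genes were examined in infarcted hearts of mice with and without KDM5B, in the left ventricle on Day 7 after myocardial infarction (MI). They comprised Hba-a1, Hbb-b1, Alas2, Slc4a1, Ahsp and Klf1, 6 of the 27376 gene names on the array, and were chosen by name as genes of the red cell lineage. The files held 9 probes for them: 4 for Hbb-b1 and 1 for each of the others. The mice were male by their labels and 8 to 10 weeks old, and MI was made by ligating the left anterior descending coronary artery. KO mice carried a CRISPR/Cas9 deletion in the JmjC domain region of Kdm5b that shifts the reading frame, on a C57BL/6 background, and WT mice were their littermates. KDM5B is an enzyme that removes methyl groups from lysine 4 of histone H3. Each group had 2 one-color Agilent arrays, numbered 2 and 3, which are called WT 2, WT 3, KO 2 and KO 3. Hearts without MI were not analyzed here, so each comparison is between infarcted ventricles. The labels do not say what the numbers stand for.

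Hemoglobin carries oxygen in red cells and is assembled from alpha globin, beta globin and heme. Its genes are transcribed in erythroid precursors of the bone marrow and spleen, under GATA1 and KLF1 and their partners, and the messenger RNA persists in reticulocytes, the young red cells that still hold RNA while they circulate. The adult heart is not a site of erythropoiesis, but a piece of ventricle holds blood. In these bulk samples, fewer cells of a type and less RNA per cell cannot be told apart.

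The sequences of the Hba-a1 probe and of 3 Hbb-b1 probes are shown. The remaining Hbb-b1 probe, at chr7:110961112-110961171 on the minus strand of mm9, is not shown. The files place the Hba-a1 probe at chr11:32183775-32183956 on the plus strand of mm9, a span of 182 bases for a probe of 60, and 3 of the Hbb-b1 probes at chr7:110962000-110962059, chr7:110962031-110962090 and chr7:110962317-110962376 on the minus strand. The capitals mark a run of 29 bases that the overlapping pair of Hbb-b1 probes share, so those 2 probes are not independent measures of the transcript.
Hba-a1 probe: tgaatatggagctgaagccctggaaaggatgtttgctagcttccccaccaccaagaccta
Hbb-b1 probe at 110962000: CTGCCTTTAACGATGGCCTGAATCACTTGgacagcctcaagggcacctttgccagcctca
Hbb-b1 probe at 110962031: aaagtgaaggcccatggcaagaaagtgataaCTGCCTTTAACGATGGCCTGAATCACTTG
Hbb-b1 probe at 110962317: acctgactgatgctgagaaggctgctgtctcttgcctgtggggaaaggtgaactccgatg
The position of the probes within exons was not determined. The longest run shared by the Hba-a1 probe and the probe of its neighbor Hba-a2 was 11 bases, but the files do not show how far the near-identical alpha globin transcripts bind to both, so Hba-a1 and Hba-a2 are uncertain as separate genes. The same holds for Hbb-b1. In the RefSeq table (GRCm38.p6) the accession of its probes belongs to Hbb-bt, the name of that copy in the C57BL/6 haplotype, whose neighbor Hbb-bs is nearly identical.

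The 250 bases before the start of Hba-a1, Hbb-bt and Alas2 are shown as background, from RefSeq on GRCm38.p6. They lie at chr11:32283422-32283671 on the plus strand, chr7:103813924-103814173 on the minus strand and chrX:150547167-150547416 on the plus strand. The capitals mark GATAA, the core that GATA factors bind, and CACCC, the core that KLF factors bind, each searched on both strands.
Hba-a1 upstream: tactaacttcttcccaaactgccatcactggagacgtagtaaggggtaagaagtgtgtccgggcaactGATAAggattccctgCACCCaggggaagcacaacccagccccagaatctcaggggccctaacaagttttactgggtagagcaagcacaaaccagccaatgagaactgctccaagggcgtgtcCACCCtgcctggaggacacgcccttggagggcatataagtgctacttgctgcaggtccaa
Hbb-bt upstream: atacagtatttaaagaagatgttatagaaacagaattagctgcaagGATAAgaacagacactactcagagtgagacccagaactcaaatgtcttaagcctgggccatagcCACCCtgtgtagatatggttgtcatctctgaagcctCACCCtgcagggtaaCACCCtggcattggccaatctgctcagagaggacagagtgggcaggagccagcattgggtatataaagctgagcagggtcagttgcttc
Alas2 upstream: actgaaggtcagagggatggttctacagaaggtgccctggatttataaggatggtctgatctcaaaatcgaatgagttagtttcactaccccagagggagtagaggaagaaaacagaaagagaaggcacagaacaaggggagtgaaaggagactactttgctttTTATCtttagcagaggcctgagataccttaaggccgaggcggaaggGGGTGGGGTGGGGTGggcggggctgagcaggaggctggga
GATAA was present once in each of these windows and in that of Klf1. CACCC was present at 2 places for Hba-a1, 3 for Hbb-bt, 3 for Alas2 and 1 for Klf1. Over 32851 promoter windows of this length, 22.6% held GATAA, 52.0% held CACCC and 10.1% held both. No match overlapped another in the windows shown. Slc4a1 and Ahsp have no promoter entry in that table. A match describes the letters of a window and was not tested as a binding site.

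The 4 arrays lay on 1 slide with WT at positions 1 and 2 and KO at positions 3 and 4, so slide position and genotype cannot be told apart. Of 41174 probes, 28292 were detected well above background by both arrays of WT, of KO or of each, and were tested. Levels are log2 signals less the log2 of the 75th percentile of the same array, and differences are KO minus WT unless stated. The 75th percentile was between 608 and 976 signal units, lowest on KO 2. The number 2 and number 3 arrays did not share 1 sex by their transcripts: the brightest Xist probe had levels of 4.36 (WT 2), -8.01 (WT 3), 3.997 (KO 2) and -7.78 (KO 3), and a probe of the Y-linked Ddx3y was the reverse, so the number 2 arrays went against their label. For the targeted Kdm5b, both probes had their KO values below their WT values, and both stayed well above background in KO. For these reasons each result is given over all 4 arrays and within each number, which compares 1 KO array with 1 WT array and has no replicate.

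All 5 members other than Klf1 were well above background on all 4 arrays. None of them differed between the genotypes by more than the spread between arrays, and each was lowest on WT 2. Hba-a1, an alpha globin gene, had levels of 5.78 (WT 2), 7.44 (WT 3), 7.67 (KO 2) and 6.34 (KO 3). The WT arrays were thus the lowest and the second highest, and the KO arrays lay on both sides of WT 3. WT averaged 6.61 ± 1.17 (SD, n = 2) and KO 7.00 ± 0.94 (SD, n = 2), a difference of 0.39 with a standard error of 0.80 (limma adjusted p = 0.9999).

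Hbb-b1, a beta globin gene, was measured by 4 probes that agreed in the order of the arrays. The brightest probe had levels of 6.77 (WT 2), 8.11 (WT 3), 8.48 (KO 2) and 7.34 (KO 3). WT averaged 7.44 ± 0.95 (SD, n = 2) and KO 7.91 ± 0.81 (SD, n = 2), and the difference of 0.47 had a standard error of 0.68 (limma adjusted p = 0.9999). Over the 4 probes the difference was between 0.41 and 0.49. On each of them WT 2 was the lowest array and KO 2 the highest. The spots of Hba-a1 and Hbb-b1 were so bright that the scanner software took all 20 from its low-intensity scan, and none of the 20 was saturated.

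Ahsp is the chaperone that holds free alpha globin in a stable form. Its levels were -5.07 (WT 2), -2.33 (WT 3), -3.53 (KO 2) and -3.12 (KO 3). Both KO arrays lay between the WT arrays, and KO minus WT was 0.37 ± 1.03 (SE) (limma adjusted p = 0.9999). The WT arrays were the extremes of all 4, and WT 3 exceeded WT 2 by 6.65-fold.

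Alas2, the erythroid form of the enzyme that begins heme synthesis, had levels of 0.74 (WT 2), 2.83 (WT 3), 2.77 (KO 2) and 1.79 (KO 3). Its probe lies at chrX:147004993-147005052 on mm9. WT 3 and KO 2 were nearly level, with WT 2 well below. WT averaged 1.79 ± 1.48 (SD, n = 2) and KO 2.28 ± 0.69 (SD, n = 2), which gave a difference of 0.49 with a standard error of 0.87 (limma adjusted p = 0.9999).

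Slc4a1, the band 3 anion exchanger of the red cell membrane, had levels of -3.01 (WT 2), -0.66 (WT 3), -1.55 (KO 2) and -1.46 (KO 3). Its probe lies at chr11:102210256-102210315 on mm9. The KO arrays were close together, with an SD of 0.06 (n = 2) against 1.66 (n = 2) in WT, and both lay between the WT arrays. KO minus WT was 0.33 ± 0.88 (SE) (limma adjusted p = 0.9999).

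Klf1, the zinc finger factor that drives adult beta globin transcription, was not well above background on any of the 4 arrays and was not tested. Its probe lies at chr8:87428881-87428940 on mm9, and no fold is given for it. Gata1 was likewise not well above background on any array. Neither factor has a measured level here.

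**Figure D1:**
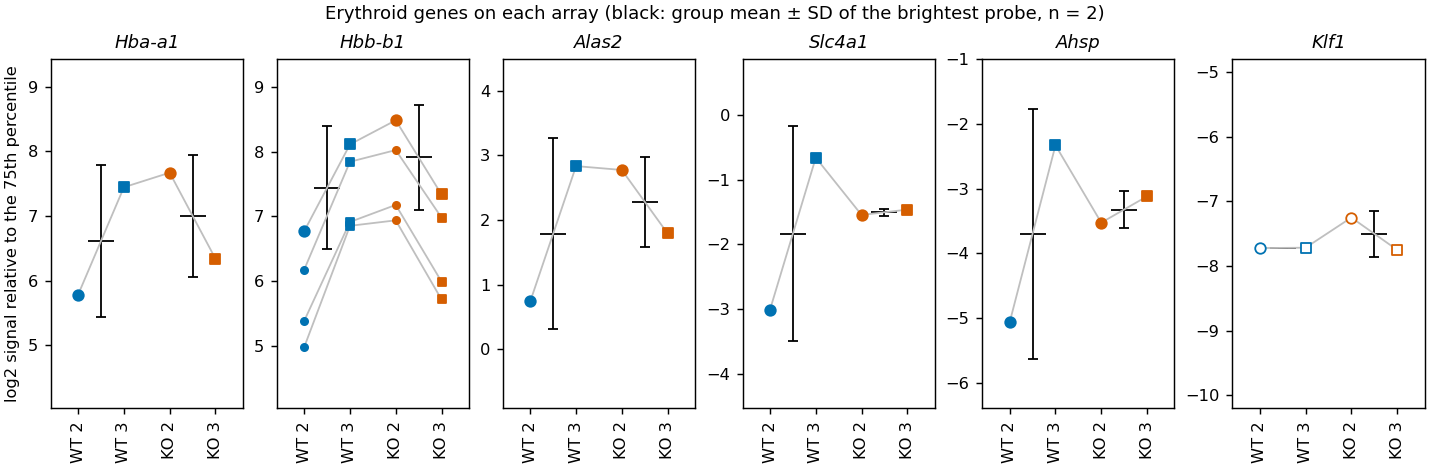
Level of each erythroid gene on the 4 arrays, as log2 signal over the 75th percentile (y axis, the same length of scale in each panel), with circles for number 2, squares for number 3, blue for WT and orange for KO. Small symbols are further Hbb-b1 probes, open symbols are not well above background, and the black marks are the mean ± SD (n = 2) of the brightest probe. WT 2 is the lowest array for each gene but Klf1, and the KO arrays overlap the WT arrays throughout.

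Across genotypes, 0 of the 8 tested member probes passed an adjusted p of 0.05 with a fold change over 2, where 0% of all tested probes did. None of the 8 had an unadjusted limma p under 0.05 (range 0.527 to 0.736), against 1.45% of all tested probes. None differed by more than 2-fold, against 3.35% of all tested probes, and none had both KO arrays beyond both WT arrays, against 23.9%. The differences of the 8 probes, from 0.33 to 0.49, were smaller than their standard errors, from 0.68 to 1.03. An exact permutation test of 2 arrays against 2 cannot give a two-sided p under 0.333. A p above the threshold does not show that the genotypes had the same level.

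Within the array numbers, the genotypes differed in opposite directions. At number 2, each of the 8 probes was higher on KO 2 than on WT 2, by 1.47 log2 units for Slc4a1 to 2.03 for Alas2, or 2.76-fold to 4.09-fold. All 8 exceeded 2-fold, where 6.19% of all tested probes were higher on KO 2 by as much. The count was 7 of 8 with normexp background correction, where Ahsp was at 0.81, and 7 of 8 without scaling, where Slc4a1 was at 0.94. At number 3, each of the 8 was lower on KO 3 than on WT 3, with a difference of -0.77 to -1.14. Of these, 3 exceeded 2-fold, which were Hba-a1 (2.15-fold), Alas2 (2.06-fold) and 1 Hbb-b1 probe (2.20-fold), against 1.78% of all tested probes. The count was 3 of 8 with normexp background correction, 4 of 8 in the deposited log2 table as after quantile normalization, and 5 of 8 without scaling. KO 2 above WT 2 together with KO 3 below WT 3 was found for 8 of 8 member probes and for 26.3% of all tested probes. These probes follow genes chosen together as genes of the red cell lineage, and 4 of them follow 1 gene. They are therefore not 8 independent observations.

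**Figure D2:**
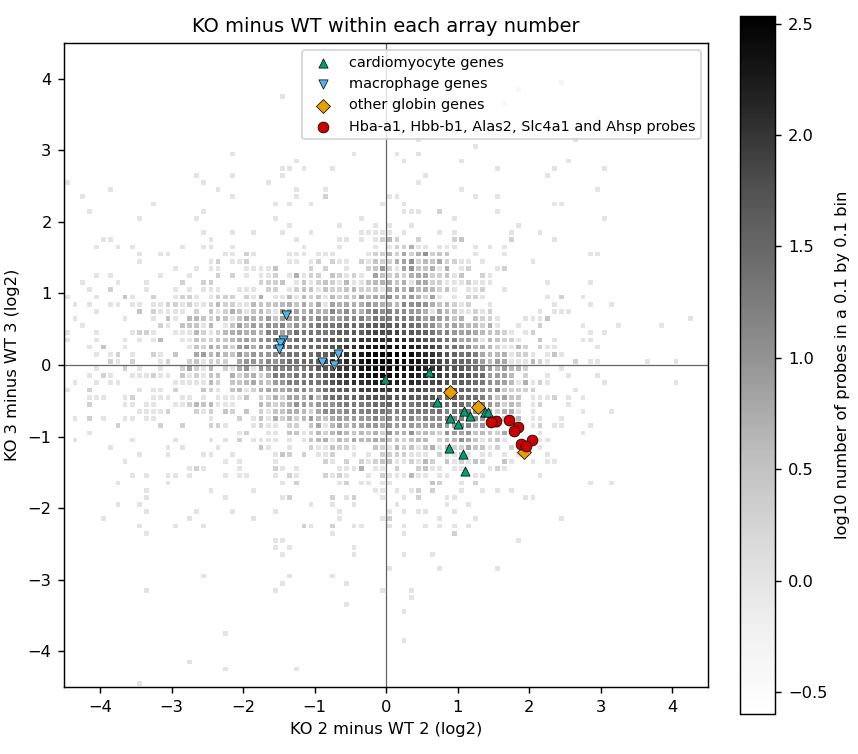
KO minus WT in log2 units at number 2 (x axis) and at number 3 (y axis), with all tested probes in gray bins shaded by their number and marked genes in color. The 8 member probes (red) lie together at the lower right, at 1.47 to 2.03 on the x axis and -0.77 to -1.14 on the y axis. Cardiomyocyte genes (green) lie in or at the edge of the same quadrant and macrophage genes (blue) at the upper left.

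The WT arrays differed from each other by as much as the genotypes did. WT 3 exceeded WT 2 for each of the 8 probes, by 2.53-fold for the brightest Hbb-b1 probe to 6.65-fold for Ahsp, and all 8 were over 2-fold, against 1.88% of all tested probes. For Ahsp, Slc4a1 and Alas2 this was more than the difference between KO 2 and WT 2, and for Hba-a1 and Hbb-b1 it was less. The KO arrays were less far apart. KO 3 was below KO 2 by 0.98 to 1.33 log2 units for Alas2 and the globins, and the KO 3 minus KO 2 difference was 0.08 for Slc4a1 and 0.41 for Ahsp. The globins and Alas2 thus had 1 order over the KO arrays, and Slc4a1 and Ahsp the other. All 8 probes combined KO 2 above WT 2, KO 3 below WT 3 and WT 3 above WT 2, a combination of 8.8% of all tested probes.

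The scaling between arrays bore on which array stood highest. As scaled to the 75th percentile, KO 2 exceeded WT 3 by 0.22 for Hba-a1 and 0.37 for the brightest Hbb-b1 probe. After quantile normalization it was below WT 3, by a difference of -0.58 and -0.45, and without scaling by -0.46 and -0.31. KO minus WT of Hba-a1 was 0.39 as scaled, 0.03 after quantile normalization and 0.06 without scaling, and that of Hbb-b1 was 0.47, 0.12 and 0.14. In contrast, WT 2 was the lowest array for all 5 detected members under each of these scalings, and the opposite directions at number 2 and number 3 were seen under each of them. The direction over all arrays depended on WT 2 for all 5 genes, and on KO 2 for Hba-a1 and Hbb-b1. Without WT 2 the differences were -0.44 for Hba-a1, -0.20 for Hbb-b1, -0.55 for Alas2, -0.84 for Slc4a1 and -0.99 for Ahsp, and without WT 3 they were 1.22, 1.14, 1.54, 1.51 and 1.74. Without KO 2 the differences of Hba-a1 and Hbb-b1 were -0.27 and -0.10, and without KO 3 they were 1.06 and 1.04. That of Alas2 fell to 0.0038 without KO 2, where Slc4a1 stood at 0.37 and Ahsp at 0.58.

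**Figure D3:**
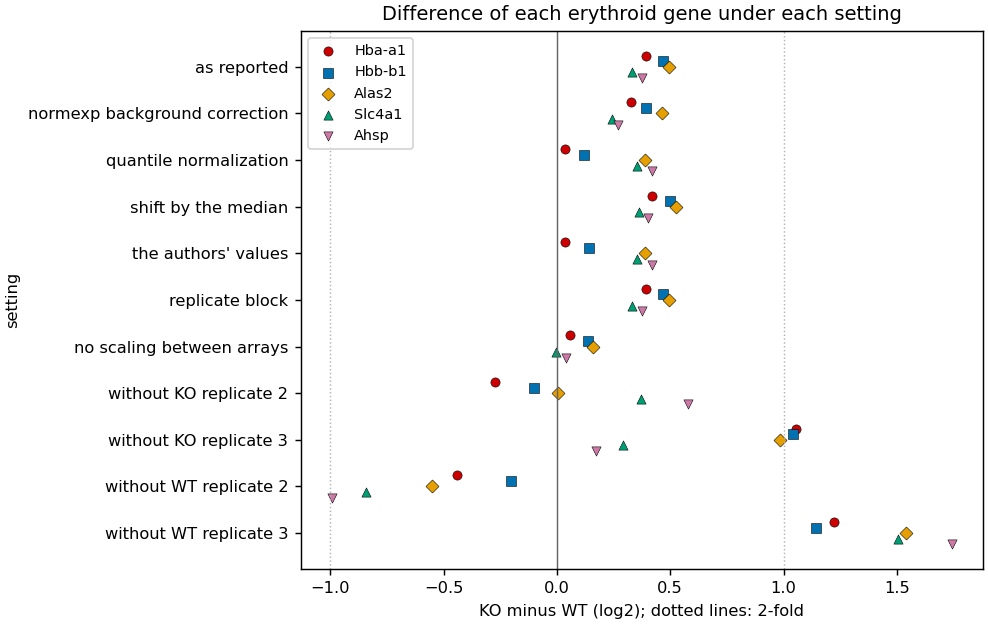
KO minus WT in log2 units (x axis) for 5 erythroid genes under each way of processing or with 1 array left out (y axis), 1 symbol per gene. Values with all 4 arrays lie between -0.00356 and 0.52, and they spread to -0.99 without WT 2 and to 1.74 without WT 3.

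Further globin genes were on the array. Of 6 with a probe, 3 were tested: Hba-a2, the second alpha globin gene, Hbb-y, an embryonic beta-like globin, and Hbq1b, a theta globin of little known function. Hba-a2 had levels of 5.38 (WT 2), 7.07 (WT 3), 7.31 (KO 2) and 5.85 (KO 3), and Hbb-y had -3.35, -2.51, -2.06 and -3.10 on the same arrays. Both followed the order of Hba-a1 and Hbb-b1. Hbb-y was far dimmer than Hbb-b1. Whether its probe also binds the adult beta globin transcripts was not tested, so expression of Hbb-y itself is uncertain. Hbq1b had -3.71, -3.61, -2.82 and -3.99, with KO 2 again the highest but KO 3 the lowest. KO minus WT was 0.36 with a standard error of 0.84 for Hba-a2 and 0.35 with a standard error of 0.53 for Hbb-y (limma adjusted p = 0.9999 for both). The embryonic Hba-x was not well above background on any array.

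Heme synthesis is shared by all cells, and its genes other than Alas2 did not follow the erythroid order. All 8 were tested, 7 were higher and 1 lower in KO by their means, 0 passed the test, and their median difference was 0.38, beside 0.04 over 15059 tested genes. Alas1, the form of the rate-limiting enzyme found in all tissues, had levels of 3.96 (WT 2), 3.45 (WT 3), 5.38 (KO 2) and 3.06 (KO 3), with KO 2 apart from the others. Alad, which joins the product of that enzyme into a pyrrole, had 1.23, 0.77, 2.28 and 0.89 on the same arrays. KO minus WT was 0.51 ± 0.89 (SE) for Alas1 and 0.58 ± 0.57 (SE) for Alad. Ppox differed by -0.08 ± 0.20 (SE). For 0 of the 8 was WT 3 above WT 2, in contrast to the 5 detected members, where it was for 5 of 5. Over all tested genes it was for 7284 of 15059.

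Of 20 red cell membrane and skeleton genes beside Slc4a1, 15 were tested, 9 were higher and 6 lower in KO, and 0 passed the test (median difference 0.04). Rhd, of the Rh blood group proteins, had levels of 0.76 (WT 2), -0.70 (WT 3), 1.76 (KO 2) and -1.09 (KO 3), and Xk had -3.53, -4.15, -2.57 and -4.54. Their WT arrays stood in the opposite order to those of Slc4a1. Rhd and Xk differed by 0.30 ± 1.18 (SE) and 0.28 ± 0.78 (SE). Add2, the beta adducin of the spectrin skeleton, had levels of -3.50 (WT 2), -3.72 (WT 3), -4.48 (KO 2) and -4.48 (KO 3). Both KO arrays were below both WT arrays, and KO minus WT was -0.87 ± 0.22 (SE) (limma unadjusted p = 0.0181, adjusted p = 0.9999), but -0.09 with normexp background correction. Dmtn, the actin-bundling dematin, differed by -0.46 ± 0.25 (SE). Of the 15 genes, 4 had both KO arrays beyond both WT arrays, where 22.2% of all tested genes did.

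Of 11 erythroid regulators beside Klf1, 9 were tested, 4 were higher and 5 lower in KO, and 0 passed the test (median difference -0.02). Nfe2, a factor of erythroid and platelet precursors, had levels of -1.68 (WT 2), -3.23 (WT 3), -4.06 (KO 2) and -2.59 (KO 3), so that KO 2 was the lowest, unlike the globins. Bcl11a, a repressor of fetal globin that lymphocytes also express, had -1.47, -2.06, -0.89 and -1.31. Epor, the erythropoietin receptor, had -0.996, -0.84, -0.58 and -0.58. Both KO arrays were above both WT arrays for Bcl11a and Epor, with differences of 0.66 ± 0.33 (SE) and 0.34 ± 0.21 (SE), and neither passed the test (limma adjusted p = 0.9999). Of the 9 tested genes, these 2 had both KO arrays beyond both WT arrays, near the 22.2% of all tested genes. Nfe2 differed by -0.87 ± 0.81 (SE) and Gfi1b, a repressor shared with the platelet lineage, by -0.26 ± 0.49 (SE).

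Of 23 genes of iron uptake and red cell maturation, 21 were tested, 14 were higher and 7 lower in KO, and 0 passed the test (median difference 0.06). The genes furthest apart in this list, Tfrc and Tfr2, differed through KO 2. Tfrc, the transferrin receptor, had levels of -2.27 (WT 2), -2.78 (WT 3), 0.22 (KO 2) and -2.81 (KO 3), and Tfr2, its second form, had -0.40, -0.47, -3.14 and -0.40. They differed by 1.23 ± 1.14 (SE) and -1.34 ± 1.02 (SE), and without KO 2 by -0.28 and 0.03. Over 2-fold differences were found for 2 of the 21, against 3.5% of all tested genes. Pklr, pyruvate kinase of red cells and liver, differed by 0.46 ± 0.28 (SE), and Steap3, a ferric reductase, by -0.45 ± 0.30 (SE), or 0.06 with normexp background correction.

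Within this list, Bpgm and Car2 were singled out after their values were seen, and so they support nothing. Bpgm, the enzyme that makes the phosphoglycerate regulating oxygen release, had levels of -0.24 (WT 2), 0.78 (WT 3), 0.70 (KO 2) and 0.21 (KO 3). Car2, a carbonic anhydrase, had -1.64, -0.25, -0.90 and -0.93 on the same arrays. For both of them WT 2 was the lowest array and WT 3 the highest. Car1, Prdx2 and Cat, also chosen after their values were seen, did not share this order. Car1, a further carbonic anhydrase, had -1.73, -1.73, -1.75 and -1.68, and Prdx2, a peroxiredoxin, had 6.24, 5.79, 6.89 and 5.84. Cat, the catalase, had 2.79, 2.74, 3.23 and 2.54. Over the whole list, 6 of its 21 genes combined KO 2 above WT 2, KO 3 below WT 3 and WT 3 above WT 2, against 8.04% of all tested genes, and 10 of the 21 had the first 2 of these, against 27.6%.

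The genes that clear hemoglobin and heme were not ordered like the globins. All 10 were tested, 3 were higher and 7 lower in KO, 0 passed the test, and the median difference was -0.33. Hp, the haptoglobin that binds free hemoglobin in plasma and is also made by neutrophils and other cells, had levels of 4.13 (WT 2), 3.37 (WT 3), 1.06 (KO 2) and 2.12 (KO 3). Both KO arrays were below both WT arrays, and WT exceeded KO by 4.47-fold, or -2.16 with a standard error of 0.52 (limma unadjusted p = 0.0159, adjusted p = 0.9999). KO was lower at number 2 (-3.07) and at number 3 (-1.25), and the difference was between -1.63 and -2.69 with any 1 array left out. These signs follow from both KO arrays being below both WT arrays and are not further support.

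Slc40a1, the ferroportin that exports iron from macrophages, had levels of 1.62 (WT 2), 2.65 (WT 3), 0.93 (KO 2) and 1.01 (KO 3). Cd163, the macrophage receptor for haptoglobin bound to hemoglobin, had -1.13, -1.41, 0.47 and -0.91 on the same arrays. The groups did not overlap for either, with KO lower for Slc40a1 and higher for Cd163. The differences were -1.16 ± 0.43 (SE) and 1.05 ± 0.55 (SE), and neither passed the test (limma adjusted p = 0.9999). Leaving out WT 3 gave -0.65 for Slc40a1, and leaving out KO 2 gave 0.36 for Cd163. Hmox1, the heme oxygenase that breaks heme open, had levels of 2.29 (WT 2), 3.26 (WT 3), 0.25 (KO 2) and 3.58 (KO 3), with KO 2 apart and the groups overlapping. Fth1, the ferritin heavy chain that stores iron, had 7.83, 7.62, 8.22 and 7.89, a difference of 0.33 ± 0.25 (SE), or -0.00288 without scaling. In all, 5 of the 10 genes had both KO arrays beyond both WT arrays, against 22.2% of all tested genes, and 3 of the 10, which were Hp, Slc40a1 and Cd163, differed by over 2-fold, against 3.5%.

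**Figure D4:**
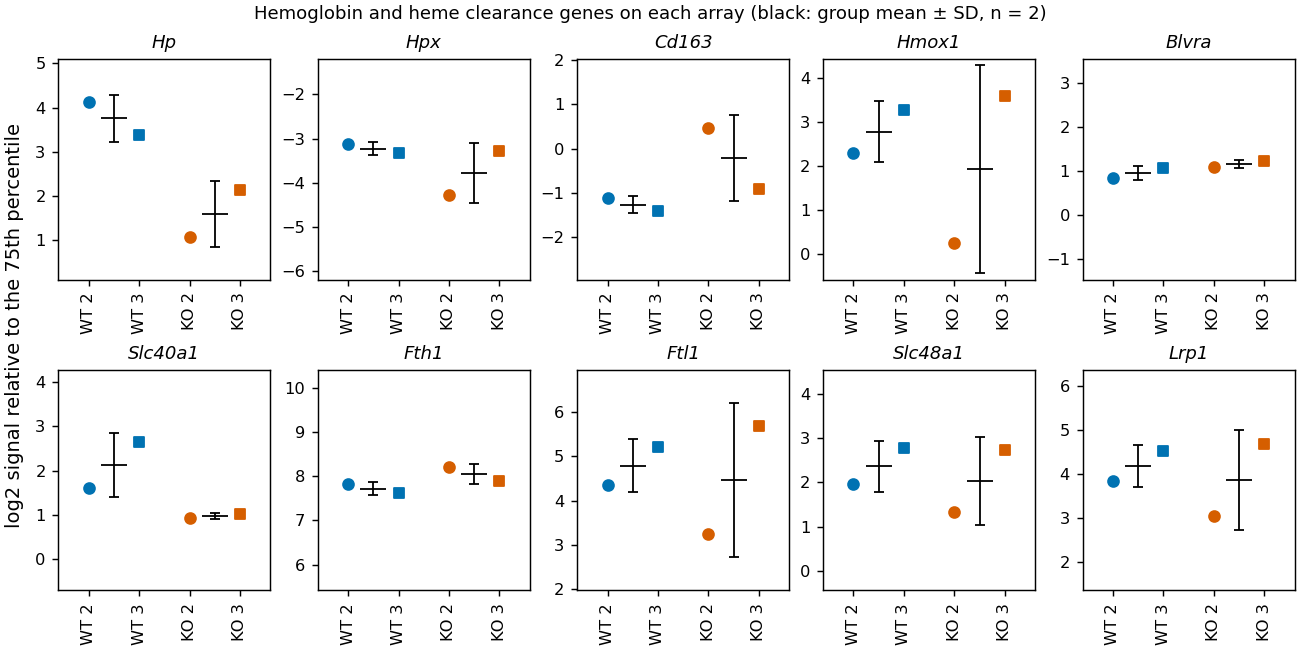
Level of 10 hemoglobin and heme clearance genes on the 4 arrays, as log2 signal relative to the 75th percentile (y axis, the same length of scale in each panel), with circles for number 2, squares for number 3, blue for WT, orange for KO, and black marks for the mean ± SD (n = 2). Hp and Slc40a1 lie lower on both KO arrays and Cd163 higher, while Hmox1, Ftl1, Slc48a1 and Lrp1 are lowest on KO 2 and high on KO 3.

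Marker genes of other blood and heart cells moved over the arrays as well. Of 11 tested platelet genes, WT 3 was above WT 2 for 11, where it was for 7284 of 15059 tested genes. The median of WT 3 minus WT 2 was 1.46 log2 units. The mean level of the list was -2.92 (WT 2), -1.66 (WT 3), -2.68 (KO 2) and -2.16 (KO 3). The platelet list therefore shared the low WT 2 and the high WT 3 of the erythroid genes. KO 2 above WT 2 with KO 3 below WT 3 was found for 3 of 11, near the 27.6% of all tested genes. Pf4 and Itgb3, of this list, differed by 0.13 and -0.64 over the genotypes. Gp6, a collagen receptor of platelets, had levels of -5.09 (WT 2), -2.76 (WT 3), -5.13 (KO 2) and -5.90 (KO 3), the last not well above background, and differed by -1.59 ± 0.92 (SE), or -0.42 without WT 3 and -0.18 with normexp background correction. The 11 blood leukocyte genes had a mean level of -1.19 (WT 2), -0.93 (WT 3), -2.89 (KO 2) and -0.33 (KO 3). Of these, 0 were higher on KO 2 than on WT 2, against 8048 of 15059 tested genes. S100a8 and S100a9, of neutrophils, each differed by -1.21 and were lowest on KO 2. Cd3d, of the T cell receptor complex, had -0.41, -0.97, -4.57 and -1.16, and differed by -2.18 ± 1.28 (SE), or -0.48 without KO 2. Neither Gp6 nor Cd3d passed the test (limma adjusted p = 0.9999). The 7 macrophage genes, which include Adgre1 and Lyz2, had mean levels of 3.21, 3.80, 2.05 and 4.05, again lowest on KO 2.

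Of the lists examined, the cardiomyocyte genes spanned the widest range of mean levels. The mean level of the 12 genes, Tnnt2 and Actc1 among them, was 6.58 (WT 2), 5.56 (WT 3), 7.53 (KO 2) and 4.81 (KO 3). KO 2 was above WT 2 and KO 3 below WT 3 for 11 of the 12, as for the erythroid genes. This was found for 27.6% of all tested genes. In contrast to the erythroid genes, WT 3 was above WT 2 for 0 of the 12, against 7284 of 15059 tested genes. The 8 endothelial genes, which include Emcn and Vwf, had means of 2.10, 2.23, 2.66 and 1.96. Of these, 6 of the 8 shared all 3 features of the erythroid order, against 8.04% of all tested genes. Their size was smaller (median 0.55 at number 2 and -0.21 at number 3 over the 8). The 7 fibroblast genes, which include Dcn and Col1a2, had means of 6.53, 6.57, 5.76 and 6.75. No defining marker of cardiomyocytes, macrophages, endothelial cells or fibroblasts on these lists was at background on any array. The part of the amount of muscle, blood or infiltrate in the erythroid differences was not tested.

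**Figure D5:**
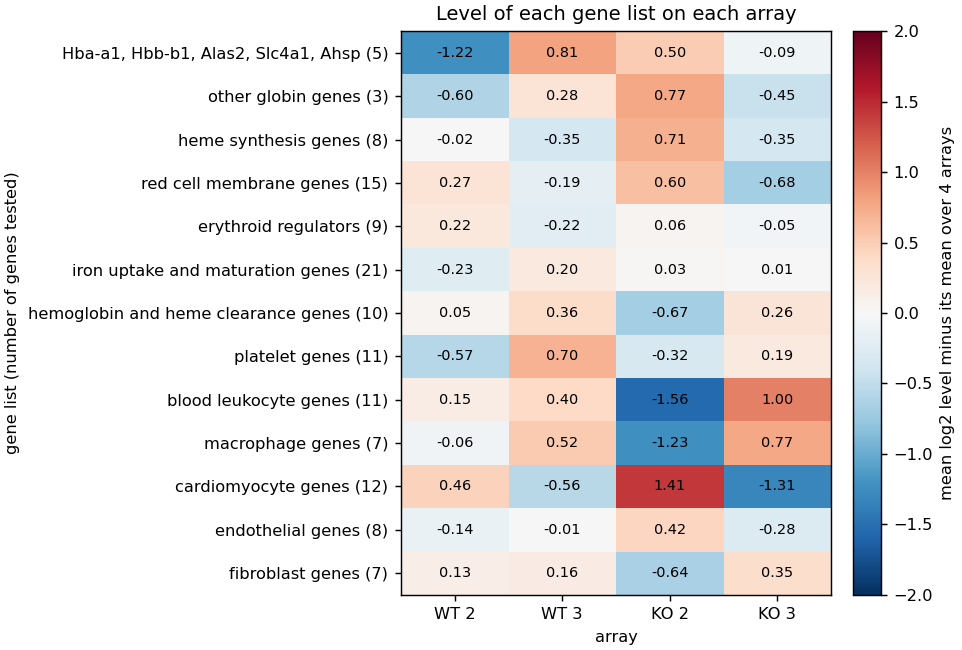
Mean log2 level of each gene list on each array minus its own mean over the 4 arrays, with lists in rows and arrays in columns. The erythroid genes stand at -1.22 (WT 2), 0.81 (WT 3), 0.50 (KO 2) and -0.09 (KO 3), the platelet genes at -0.57 and 0.70 on the WT arrays, and the cardiomyocyte genes at 0.46 and -0.56 on the WT arrays and 1.41 and -1.31 on the KO arrays.

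The genes most like Hbb-b1 in profile were found by the root mean square (RMS) difference of the centered levels over the 4 arrays. Compared were 23524 probes that were well above background on all 4 arrays and had a RefSeq symbol or were members. The brightest Hbb-b1 probe itself varied by an RMS of 0.67. Outside the members and other globins, the nearest were A630077J23Rik (0.030), Ngb, the neuroglobin gene (0.176), Nmrk2, a nicotinamide riboside kinase gene (0.177), Gpi1, a glucose phosphate isomerase gene (0.186), and Tdrp (0.191). Among the members, the other Hbb-b1 probes were at 0.070, 0.121 and 0.193, Hba-a1 at 0.136, Alas2 at 0.271, Slc4a1 at 0.57 and Ahsp at 0.74. Alas2 was number 25 in the order of likeness, Slc4a1 number 1870 and Ahsp number 13353. With 4 points, many unrelated profiles are near one another, and the order is a description of these arrays.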

How the data were processed

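RNA of left ventricles was hybridized to Agilent Whole Mouse Genome one-color arrays, 2 WT and 2 KDM5B-KO. The authors deposited the Feature Extraction intensity of each spot (10.7.3.1 per the file headers, 10.7 per the submitters' processing notes), corrected by spatial and multiplicative detrending, with flags for detection, and a log2 table. Per the methods, this deposited log2 table was normalized in GeneSpring, by a procedure that is not stated. Between 99.89% and 99.96% of its values were within 0.01 of quantile-normalized log2 intensity, so its scale is log2 and its genes are not centered, and every column has a median of 6.78. The numbers of arrays limit the precision.

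The members and gene lists were chosen with earlier results of these data known. Intensity was taken as log2 and shifted by the 75th percentile of each array. Spots with an outlier flag (92 to 116 per array) were left out and the spots of a probe averaged. A probe was tested if either genotype had both its arrays well above background. The genotypes were compared in limma 3.58.1 (lmFit and eBayes, R 4.3.3) with Benjamini-Hochberg adjustment over all 28292 tested probes, with calls made at a fold change over 2 and an adjusted p under 0.05. The script was tested on simulated data. A gene with several probes has the value of its brightest tested probe. Probe symbols were matched to RefSeq (GRCm38.p6) for 31437 probes by symbol, 2200 by synonym and 91 by accession, and 7446 had no match. Probe coordinates were copied from the files (mm9). The labels do not say which mouse gave which array. The arrays of each group differed in Xist and Ddx3y, so they did not hold RNA of 1 shared mouse, and p-values measure the spread between these arrays.

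Named were all members, the 2 genes of each erythroid list furthest in each direction among those well above background on all arrays, genes of any list whose genotypes did not overlap and differed by over 2-fold, the 2 brightest genes of each marker list and the 5 genes nearest to Hbb-b1 in profile. Hbq1b, Bpgm, Car1, Car2, Prdx2, Cat and Hmox1 were added after their values were seen. The alternatives were normexp background correction (offset 50), median scaling, quantile normalization, the authors' values, no filter on dim probes, a filter that required detection on all 4 arrays, the methods' t-test, a block for the array number, omission of each array and averages over the probes of a gene. No scaling between arrays was added after seeing the data.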

Additional observations from a re-analysis of the deposited data

Results flagged for a closer look

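For each of the 5 detected erythroid genes, the KO array was above the WT array at number 2 and below it at number 3. The gap between the difference at number 2 and the difference at number 3 was 2.99 log2 units for Hba-a1, 2.49 for Hbb-b1, 3.07 for Alas2, 2.27 for Slc4a1 and 2.33 for Ahsp. With 1 array per genotype at each number, the difference between the numbers was not tested.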

How the results depend on the processing

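Some alternatives with 4 arrays could not change a direction: both changes to the detection filter and the block for the number reuse the reported values. Averages over probes could change only Hbb-b1, and the deposited log2 table nearly repeats quantile normalization. With these included, 44 of 45 values of the 5 detected erythroid genes kept the direction of KO minus WT, with limma adjusted p between 0.958 and 0.9999. None passed the threshold under any alternative, and the lowest adjusted p was 0.354, for Hbb-b1 without KO 3. The count of tested probes past the threshold was 0 (410 at an unadjusted p under 0.05) and was 0 under every alternative with adjustment, while the methods' t-test without adjustment gave 88 of 28292, none of them a member probe. Without scaling between arrays, which moved the median of all probes to -0.32 (0.13 with normexp, 0.02 as reported), the differences were -0.00356 for Slc4a1, -0.052 for Xk, -0.032 for Rhd, -0.00288 for Fth1, -0.20 for Pf4, -0.085 for Tnnt2, -0.24 for Actc1, -0.11 for Emcn, -0.000129 for Vwf, -0.15 for Bpgm, -0.31 for Car2, -0.32 for Car1, -0.21 for Cat and -0.080 for Hbq1b, and the median of the erythroid regulators was -0.35. Quantile normalization gave -0.022 for Pf4, -0.084 for Tnnt2 and -0.31 for Actc1, and the authors' values -0.022, -0.073 and -0.29, with -0.00421 for Fth1. Normexp gave 0.35 for Gfi1b and 0.059 for Steap3. The cause was not tested.

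With 1 array left out, 7 of 20 values of the erythroid genes reversed. The ranges were -0.44 to 1.22 for Hba-a1, -0.20 to 1.14 for Hbb-b1, -0.55 to 1.54 for Alas2, -0.84 to 1.51 for Slc4a1 and -0.99 to 1.74 for Ahsp.
Among the other named genes, 33 of 168 such values reversed. The ranges with 1 array left out were -0.17 to 0.87 for Hbb-y, -0.49 to 1.20 for Hba-a2, -0.65 to 1.67 for Alas1, -0.11 to 1.28 for Alad, -0.70 to 1.27 for Xk, -1.12 to 1.72 for Rhd, -0.87 to 0.34 for Gfi1b, -2.705 to 0.034 for Tfr2, -0.28 to 2.75 for Tfrc, -1.40 to 0.12 for Itgb3, -0.30 to 0.56 for Pf4, -2.78 to 0.36 for S100a8 and -2.55 to 0.13 for S100a9. The remaining ranges were -1.77 to 0.68 for Adgre1, -0.66 to 0.14 for Lyz2, -0.27 to 0.77 for Tnnt2, -0.74 to 0.93 for Actc1, -0.16 to 0.60 for Emcn, -0.64 to 0.12 for Col1a2, -0.32 to 0.70 for Bpgm, -0.67 to 0.72 for Car2, -0.018 to 0.049 for Car1, -0.18 to 0.87 for Prdx2, -0.22 to 0.47 for Cat, -2.52 to 0.81 for Hmox1 and -0.33 to 0.84 for Hbq1b. With 1 array left out, the list medians ranged from -0.55 to 1.51 for the member genes, -0.33 to 0.87 for the other globin genes, -0.12 to 0.87 for the heme synthesis genes, -0.68 to 0.83 for the red cell membrane genes, -0.059 to 0.26 for the erythroid regulators, -0.32 to 0.098 for the iron uptake and maturation genes, -1.08 to 0.31 for the hemoglobin and heme clearance genes, -0.78 to 0.41 for the platelet genes, -1.95 to 0.36 for the blood leukocyte genes, -1.39 to 0.50 for the macrophage genes, -1.29 to 1.64 for the cardiomyocyte genes, -0.26 to 0.42 for the endothelial genes and -1.04 to 0.048 for the fibroblast genes.
Arrays that share a number had correlated deviations from their group means (0.57 over 28292 probes), but 2 pairs do not show that the numbers pair the samples. With the number as a replicate block, 0 probes passed the threshold and no call changed. In this balanced layout the block can change the standard errors but not the differences. These were 0.39 for Hba-a1, 0.47 for Hbb-b1, 0.49 for Alas2, 0.33 for Slc4a1 and 0.37 for Ahsp, with a limma adjusted p of 0.995.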
